A study of Mus musculus with 3 samples.

Results

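Endothelial cells line the blood vessels and sinuses of the spleen, and 10 of their genes were followed in islet graft-bearing spleens. They were chosen by name as Pecam1, Cdh5, Kdr, Flt1, Tek, Tie1, Angpt1, Angpt2, Vwf and Esm1. These are 10 of the 34797 gene names on the array, and every non-control probe carrying 1 of these names was taken, which gave 14 of 55679 probes, spread over 24 spots per array. Pecam1, Cdh5, Kdr, Flt1, Tek, Tie1 and Vwf are treated as the 7 pan-endothelial genes, Angpt2 and Esm1 as the 2 genes of sprouting vessels, and Angpt1 as the ligand of resting vessels.

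Spleen RNA was measured on 3 one-color mouse arrays, with 1 array for each condition. All recipients were C57BL/6J mice that received 25 islets in the spleen and 100 islets beneath the kidney capsule, and the study's methods describe syngeneic islets and male recipients made diabetic with streptozotocin. Sample 1 was harvested just after transplantation (day 0), Sample 2 on day 2, and Sample 3 on day 139 from mice whose graft-bearing kidney had been removed on day 100. Among the sample labels, the treatment entry mentions the kidney graft for Sample 3 only, whereas the design text gives it for all, and the sources used here do not give the number of mice behind each array. The methods give an age of 8 to 16 weeks for mice when analyzed, without tying it to an array. Sample 3 was taken 139 days after transplantation, which is longer than 16 weeks, so that range cannot be its age at harvest. On that array, the age of the mice cannot be told apart from time after transplantation. No spleen without islets was analyzed here, so day 0, which already holds freshly placed islets, is the reference. With no replicates, no test of the conditions was possible. Differences below describe these 3 arrays, in which differences between mice cannot be told apart from those of time or treatment. In RNA from a whole organ, fewer endothelial cells and less RNA per cell cannot be told apart either.

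Vascular endothelial growth factor acts on vessels through the receptor tyrosine kinases Kdr and Flt1, of which Kdr carries most of the growth signal and Flt1 binds the ligand tightly while signaling weakly. A separate pair, the angiopoietins and the receptor Tek with its relative Tie1, sets whether a vessel rests or remodels. Angpt1, made by cells around the vessel, activates Tek and keeps vessels quiet, and Angpt2, released by the endothelium itself, usually opposes it. Esm1, also called endocan, is a secreted proteoglycan typical of the tip cells that lead a new sprout. The spleen has vessels lined by endothelium, so these genes have a source in the organ whether or not a graft is present. Islets also bring endothelial cells of their own.

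Each array probe is a DNA strand of 60 bases, and a level below is the signal of 1 probe. The probes of the 2 sprouting genes and the 2 probes of Kdr are shown by their first 30 bases, since the comparison of resting with sprouting genes and the agreement of independent probes rest on them. Sequences and positions are those of the array's own annotation, on the mm9 build, and the start and end are those of the whole probe.
Angpt2 (chr8:18691458-18691517, minus strand): acctatcttgatggcttagtttttaatggc
Esm1 (chr13:114008204-114008263, plus strand): aatgtactcgtgggaagatccgtgaatgta
Kdr, brighter probe (chr5:76330395-76330454, minus strand): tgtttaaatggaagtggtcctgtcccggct
Kdr, probe with 10 spots (chr5:76329309-76329368, minus strand): ctactgtatcctttagaattttaacctata

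Tek and Tie1 are related genes on chromosome 4, and their probes lie in regions of similar sequence, so both are shown whole. Capitals mark the bases that are identical when the probes are set side by side without gaps.
Tek (chr4:94540624-94540683, plus strand): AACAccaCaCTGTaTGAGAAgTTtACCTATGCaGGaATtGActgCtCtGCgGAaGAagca
Tie1 (chr4:118144132-118144191, minus strand): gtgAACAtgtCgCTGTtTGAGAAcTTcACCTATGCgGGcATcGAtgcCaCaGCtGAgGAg
The probes were identical at 39 of 57 aligned bases (68.4%), and the longest identical run was 8 bases. Whether RNA of one gene bound the probe of the other was not tested. The log2 ratios of these probes had opposite signs on day 2, as given below.

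A ratio is the quantile-normalized signal on the later array divided by that on the earlier one. It was called higher when it was at least 1.5 with a Z-score of at least 2, and lower when it was at most 0.66 with a Z-score of at most -2. For the Z-score, a log2 ratio was divided by the SD found among the 1000 probes of most similar signal, so a probe is set against other probes and not against other mice. A scanner error is the error that the scanner software gave for both spots, carried into the log2 ratio. It was close to 0.20 for most of the 10 genes and reached 0.27 for Tek.

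None of the 10 genes was called higher or lower in any of the 3 comparisons. Of all 32108 detected probes, 1.91% were called higher and 2.55% lower on day 2 over day 0, 2.52% higher and 2.21% lower on day 139 over day 0, and 2.39% higher and 1.77% lower on day 139 over day 2. With 10 genes and so low a background, a count of 0 says little about these genes as a set. The Z-scores of the 10 genes ran from -1.46 to 0.90 for day 2 over day 0, from -1.16 to 0.69 for day 139 over day 0, and from -0.85 to 0.90 for day 139 over day 2. By ratio alone, 2 genes were at or under 0.66 on day 2 over day 0 (Pecam1 and Tek), where 10.4% of all detected probes were. By the same measure 2 genes were at or under it on day 139 over day 0 (Flt1 and Tek), beside 14.7% of detected probes. The leading probes of the 10 genes did not reach a ratio of 1.5 in any comparison with quantile normalization, where 10.1%, 12.8% and 12.4% of detected probes did. With spike-in scaling, Esm1 and Angpt1 on day 139 over day 0 and Esm1 and Pecam1 on day 139 over day 2 passed that ratio.

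All 10 genes were measurable in every spleen. Of the 14 probes, 13 were well above background on all 3 arrays, and the exception was 1 of the 3 probes of Flt1, which was not well above background on any array.

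**Figure D1:**
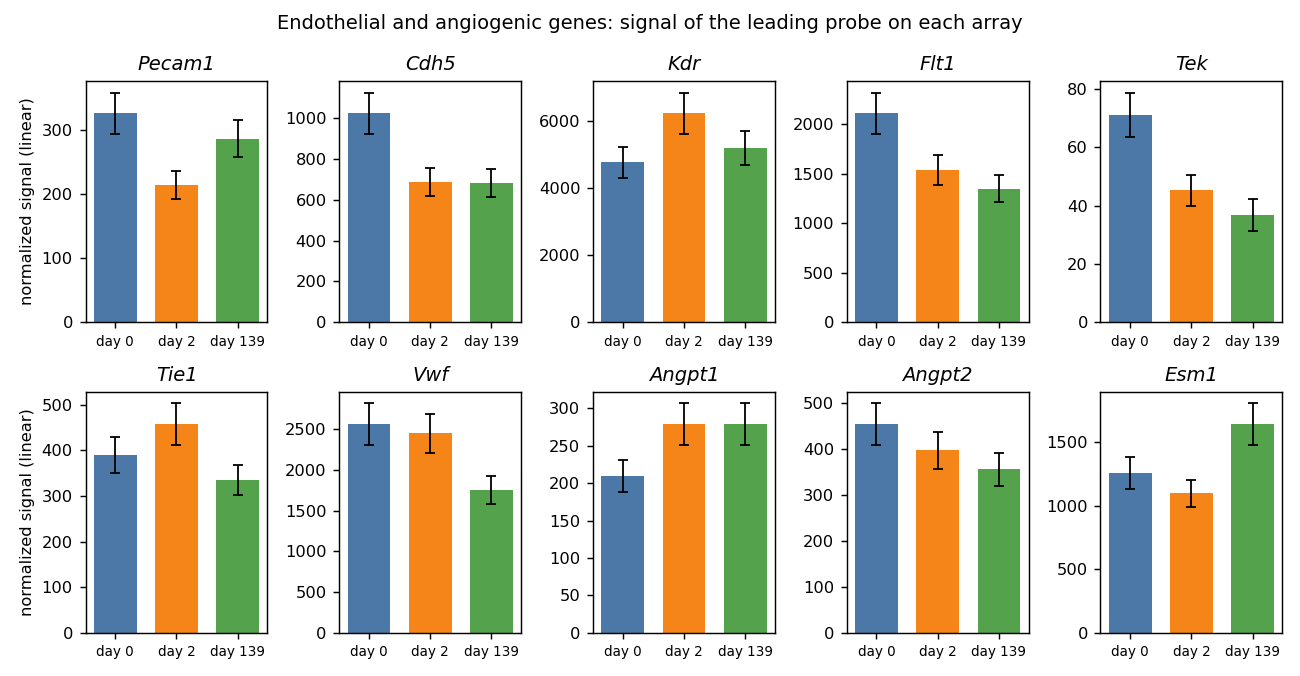
Normalized signal (linear scale, each panel with its own axis from 0) of the leading probe of each of the 10 genes on the day 0, day 2 and day 139 arrays, 1 array per bar. Error bars are the scanner software's own error, not a spread between mice. Cdh5, Flt1 and Tek stand highest on day 0, and Esm1 stands highest on day 139 at 1645.

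Among the receptors for vascular endothelial growth factor, the leading probe of Kdr was higher and that of Flt1 lower on day 2 than on day 0. Each change was beyond its scanner error but within the spread of probes of like signal that a call requires. Kdr, the main signaling receptor, had signals of 4769 on day 0, 6236 on day 2 and 5204 on day 139. With quantile normalization day 2 was the highest array, with a log2 ratio of 0.39 over day 0 (Z-score 0.90). Day 139 differed from day 0 by 0.13, which is within the scanner error. With spike-in scaling the log2 ratios of Kdr over day 0 were 0.41 on day 2 and 0.49 on day 139. On that scale day 139 was the highest array, by 0.08 over day 2. Flt1, the decoy-like receptor, had signals of 2111, 1541 and 1350 on days 0, 2 and 139. Day 0 was the highest array, and the log2 ratios over it were -0.45 on day 2 and -0.65 on day 139 (Z-score -1.15 for both). The ratio of 0.64 on day 139 lay just under the limit of 0.66, and the difference between days 2 and 139 was within the scanner error. With spike-in scaling the log2 ratios of Flt1 on day 139 were -0.24 over day 0 and 0.24 over day 2.

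Further probes of the same genes gave the same order of days 0 and 2. The Kdr probe printed above with 10 spots had normalized signals of 1489, 1702 and 1569, and log2 ratios over day 0 of 0.19 on day 2 and 0.07 on day 139. Day 2 was again the highest array, with a smaller log2 ratio than the brighter probe gave. For the probe with 10 spots, both log2 ratios over day 0 were within the scanner error of 0.204. Before normalization its spots averaged 1548 ± 34.3 on day 0, 1796 ± 92.9 on day 2 and 1417 ± 25.3 on day 139 (SD over 10 spots of 1 array). The spots of day 2, from 1608 to 1921, did not overlap those of day 0, from 1460 to 1584, or those of day 139, from 1373 to 1452. Spots of 1 array share the same RNA, so this spread covers the array surface and neither the labeling nor the mice. How often repeated spots of other probes separate in this way was not tested. The scale also matters here, because day 139 lay below day 0 before normalization and above it afterwards. The other measurable Flt1 probe (chr5:148446872-148446931), annotated to a different transcript, had signals of 542.6, 382.6 and 397.5. It was highest on day 0, as the leading probe (chr5:148373791-148373850) was, with log2 ratios of -0.50 on day 2 and -0.45 on day 139.

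**Figure D2:**
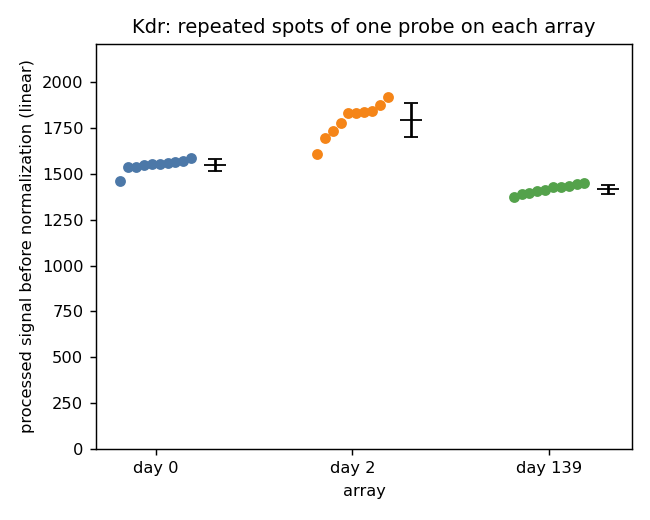
Processed signal before normalization (linear axis from 0) of the 10 spots of 1 Kdr probe on each array, sorted within the array, with the mean and SD over spots in black beside them. The spots of day 2 (mean 1796) lie above all spots of day 0 (mean 1548) and day 139 (mean 1417), and the spread shown is between spots of 1 RNA sample.

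The receptor Tek, which both angiopoietins bind, had the widest range of the 10 genes with quantile normalization of the processed signals. Its signals were 71.1 on day 0, 45.3 on day 2 and 36.7 on day 139, a 1.94-fold range between the highest and lowest array. Of 26887 probes well above background on all arrays, 86.6% had a narrower range. The log2 ratios over day 0 were -0.65 on day 2 (Z-score -0.91) and -0.95 on day 139 (Z-score -1.16), a ratio of 0.52. With another background correction (normexp) they were -0.33 and -0.40, and Flt1 was at -0.65 on day 139 over day 0. With spike-in scaling they were -0.70 and -0.62, and Esm1 was at 1.00 on day 139 over day 2. In neither of these settings was the range of Tek the widest. Probes with signals near that of Tek spread more widely between arrays, and its Z-score on day 139 was close to that of Flt1. Tie1, the relative of Tek that binds no angiopoietin tightly by itself, had signals of 390, 458 and 335. Its log2 ratio of day 2 over day 0 was 0.23 (Z-score 0.46), the opposite sign to Tek. On day 139 it was -0.22 over day 0 with quantile normalization and 0.18 with scaling to the spike-in controls, so no direction is given for it there.

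Of the genes for junctions and stored proteins, Cdh5 and Pecam1 were lower on day 2 beyond the scanner error, and Vwf differed from day 0 by less than it. Cdh5 (chr8:106668159-106668218), the cadherin that joins endothelial cells, had signals of 1025, 687 and 681. With quantile normalization, days 2 and 139 could not be separated. Both lay below day 0 with log2 ratios of -0.58 (Z-score -1.46) and -0.59 (Z-score -1.08). The day 2 value was the lowest Z-score among the 10 genes, and its ratio of 0.67 missed the limit of 0.66 narrowly. With spike-in scaling, Cdh5 on day 139 was at 0.43 over day 2, and at -0.19 over day 0, within the scanner error. Pecam1 (chr11:106540864-106540923), or CD31, an adhesion molecule of endothelium that platelets and leukocytes also carry, had signals of 326, 214 and 287. It was lowest on day 2, with a log2 ratio of -0.61 over day 0 (Z-score -1.21), and the day 139 array lay between the others. On day 139 the log2 ratio over day 0 was -0.19, within the scanner error, and it turned to 0.20 with spike-in scaling.

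Vwf, the clotting glycoprotein that endothelium and megakaryocytes store, was close to its day 0 level on day 2 and, with quantile normalization, lower on day 139. Its leading probe (chr6:125636551-125636610) had signals of 2561, 2446 and 1753. The log2 ratio was -0.07 on day 2, within the scanner error, and -0.55 on day 139 (Z-score -0.92), which became -0.14, within the scanner error, with spike-in scaling. A second Vwf probe (chr6:125542106-125542165), annotated to an Ensembl transcript, had signals of 72.5, 114 and 63.7. It disagreed with the leading probe on day 2, with a log2 ratio of 0.65 (Z-score 1.09), and both probes were lowest on day 139.

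Since platelets and their precursors carry Vwf and Pecam1, 12 megakaryocyte genes were read beside them. All 12 were well above background on every array, and their summed signal was 37380 on day 0, 40350 on day 2 and 24540 on day 139. Their median log2 ratio was -0.08 on day 2 and -0.65 on day 139 over day 0, and 11 of 12 were lower on day 139, Clec1b being the exception. Gp1ba, a subunit of the platelet receptor for von Willebrand factor, was among the lowest, with signals of 546, 452 and 240. With spike-in scaling 10 of 12 were lower on day 139, with a median of -0.26. The megakaryocyte genes were thus lower on the array on which Vwf was lowest, and their part in the Vwf value was not tested. On day 2, where Pecam1 was lowest, their median was the -0.08 given above.

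The ligands and the sprouting genes did not move together. Angpt1 (chr15:42256335-42256394), the ligand of resting vessels, had signals of 209, 279 and 279. Both later arrays were above day 0, each with a log2 ratio of 0.41 (Z-scores 0.86 and 0.69), and with spike-in scaling day 139 was at 0.80 over day 0 and 0.45 over day 2. Angpt2, its usual opponent and a gene of remodeling vessels, had signals of 454, 397 and 356. It was highest on day 0, but the log2 ratio of -0.19 on day 2 was within the scanner error, and that of -0.35 on day 139 (Z-score -0.53) turned to 0.04 with spike-in scaling. Esm1, the tip cell proteoglycan, had signals of 1257, 1098 and 1645. It was highest on day 139, with log2 ratios of 0.39 over day 0 (Z-score 0.68) and 0.58 over day 2 (Z-score 0.90), and its difference between days 0 and 2 was within the scanner error. The day 139 over day 2 ratio of Esm1 was 1.498, just short of the limit of 1.5, and with spike-in scaling the log2 ratios of Esm1 on day 139 were 0.79 over day 0 and 1.00 over day 2.

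The sprouting genes were then set beside the pan-endothelial genes. On day 2 over day 0, both sprouting genes had a log2 ratio of -0.19, inside the range of the 7 pan-endothelial genes, which ran from -0.65 for Tek to 0.39 for Kdr with a median of -0.45. On day 139 over day 0, Angpt2 at -0.35 again lay inside the range of the pan-endothelial genes, from -0.95 for Tek to 0.13 for Kdr with a median of -0.55. Esm1 at 0.39 lay above that range, as did Angpt1 at 0.41. However, the 22 further pan-endothelial genes described below ran from -1.56 to 0.47 (Icam2) in this comparison. Esm1 and Angpt1 lay inside the range of that list. No test of a difference between sprouting and pan-endothelial genes was possible, and neither Esm1 nor Angpt1 passed the limits for a call.

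By the sign of the log2 ratio alone, 5 of the 7 pan-endothelial genes were below 0 on day 2 over day 0 and 6 on day 139 over day 0. The 5 include Vwf at -0.07, and the 6 include Pecam1 at -0.19 and Tie1 at -0.22, which turned positive with spike-in scaling. The medians of the 7, -0.45 and -0.55, compare with 0.01 and -0.02 for all detected probes. Their summed signal was 11250, 11630 and 9646 on days 0, 2 and 139, a sum in which Kdr weighs most. Over all 10 genes, 6 were highest on day 0 (60% of them, against 30.8% of the 26887 probes well above background on all arrays). Among these genes, Pecam1 (0.20) and Angpt2 (0.04) were higher on day 139 than on day 0 with spike-in scaling. The 30.8% was not recomputed on that scale. Cdh5, Flt1, Tek, Vwf and Angpt2, 5 of the 10 (50%), had the order day 0, day 2, day 139 from high to low, against 17.6% of those probes, but with spike-in scaling Cdh5, Flt1, Tek and Angpt2 were higher on day 139 than on day 2. With quantile normalization, the steps from day 2 to day 139 were within the scanner error for Cdh5, Flt1 and Angpt2. The 10 genes share 3 RNA samples and are not independent, so these shares are a description.

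The level of day 139 depends on how the arrays are scaled. The 7 brighter spike-in controls, RNAs added in fixed amounts, had 104% of their day 0 signal on day 2 and 65.99% on day 139 before normalization. Scaling to them moves the median over all detected probes to 0.35 on the log2 scale for day 139 over day 0, and the median of the 7 pan-endothelial genes from -0.55 to -0.14. On that scale 4 of the 7 were below 0 on day 139 over day 0, with log2 ratios of -0.24 for Flt1 and -0.62 for Tek, and of -0.19 for Cdh5 and -0.14 for Vwf, the last pair within the scanner error. For day 2 over day 0, where the spike-ins were alike, 5 of the 7 were below 0 on either scale.

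**Figure D3:**
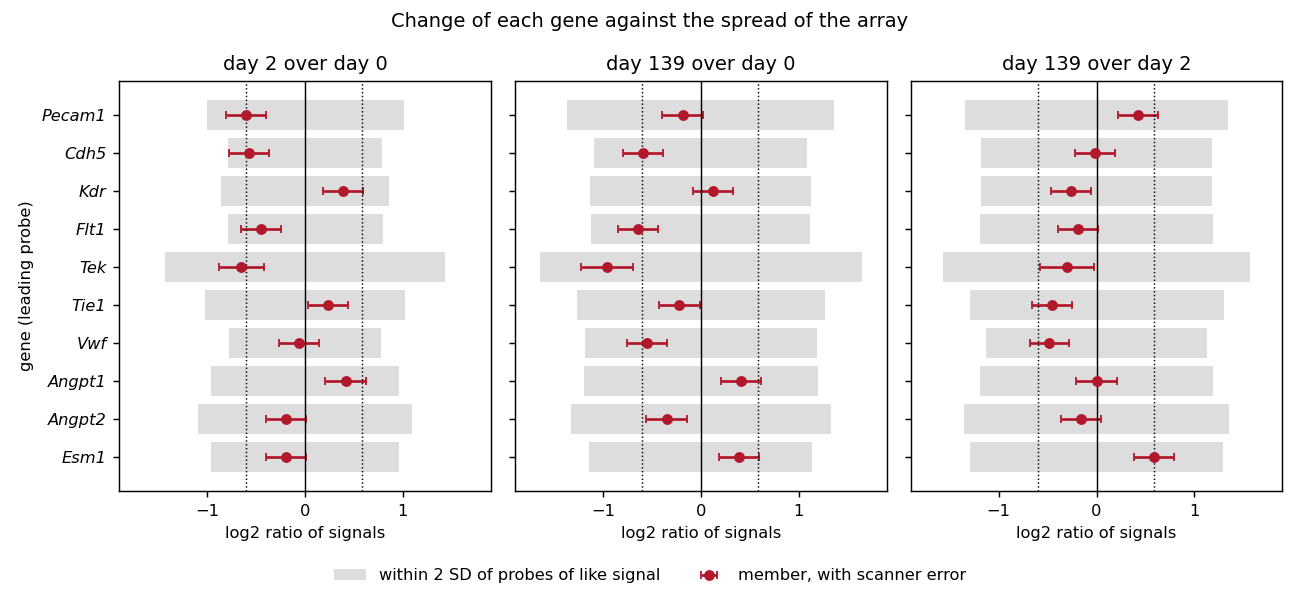
Log2 ratio of the leading probe of each gene for the 3 comparisons (points, with the scanner error as bars), over gray bands that span 2 SD of probes of like signal to either side of 0. Dotted lines mark ratios of 0.66 and 1.5, and every point lies inside its band, with Z-scores from -1.46 to 0.90.

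Further genes of endothelium were read beside the 7. Of 22 further pan-endothelial genes, all were detected, and 18 were lower on day 2 and 18 on day 139 than on day 0. Their median log2 ratios were -0.21 and -0.36. Spike-in scaling left 17 of the 22 lower on day 2 but 9 of the 22 on day 139, with a median of 0.04 there. On day 2 over day 0, 2 of the 22 genes were called lower, beside 2.55% of all detected probes. Nos3, which encodes endothelial nitric oxide synthase, had signals of 2817, 1213 and 955 and log2 ratios of -1.22 on day 2 and -1.56 on day 139, both called lower. Sox18, a transcription factor of vessel development, had signals of 380, 144 and 340, and its log2 ratio of -1.40 on day 2 was called lower while day 139 lay near day 0. Robo4, a guidance receptor that stabilizes vessels, had signals of 1980, 1432 and 1095 without a call. Icam2, an adhesion molecule that leukocytes share, had the highest log2 ratio of the list on both days, with signals of 4483, 5516 and 6211. For day 139 over day 2, the list had a median of -0.11 with 9 of 22 higher. With spike-in scaling that median was 0.28 with 19 of 22 higher. Cd93 (4735, 4757 and 2715) and Erg (106, 105 and 68.1) had the lowest log2 ratios of the list in this comparison with quantile normalization.

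Of the partners of Kdr and Flt1, 1 gene was called, higher over day 0 on both later arrays. The share of all detected probes called higher over day 0 was 1.91% on day 2 and 2.52% on day 139. The 8 ligands, co-receptors and relatives of this pathway had median log2 ratios of 0.31 on day 2 and 0.08 on day 139 over day 0, with 5 and 4 of 8 higher. For day 139 over day 2, all 8 were lower with a median of -0.29, while 7 of 8 were higher with spike-in scaling (median 0.14). Vegfa, the main ligand, had signals of 688, 566 and 479, highest on day 0, with log2 ratios of -0.28 and -0.52 and no call. Figf, the array's name for Vegfd, a ligand mainly of lymphatic vessels, was the called gene. It had signals of 110, 325 and 285, called higher over day 0 on both later arrays with log2 ratios of 1.56 and 1.38. Nrp1, a co-receptor of Kdr, had signals of 63.5, 97.6 and 75.9, and Flt4, the lymphatic receptor of the family, had 35.7, 34.0 and 24.8, both without a call.

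Genes of sprout tips and of the Notch signal that restrains sprouting showed no common direction. The 8 tip cell genes had medians of -0.22 on day 2 and -0.18 on day 139 over day 0, with 5 of 8 lower on both (3 of 8 on day 139 with spike-in scaling). Plaur, the urokinase receptor, which myeloid cells also express, had signals of 3101, 1875 and 1165 and was called lower on day 139 over day 0 (log2 ratio -1.41). Unc5b, a netrin receptor of tip cells, had signals of 290, 470 and 475, and Apln, the ligand apelin, had 27.1, 38.5 and 43.1, neither called. The 8 Notch and stalk cell genes had medians of 0.04 on day 2 and -0.24 on day 139 over day 0, the latter with 5 of 8 lower, and with spike-in scaling it was 0.14 with 6 of 8 higher. Among them, Notch1 had signals of 577, 743 and 304 and was called lower on day 139 over day 2 (log2 ratio -1.29), though lymphocytes express it too. Hey2, a Notch target of arteries, was well above background on day 139 only, at 22.04, which was at least 1.70-fold higher than on day 0. Aplnr, the apelin receptor, had signals of 42.4, 58.3 and 69.0.

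The spleen's own vessel types were measured by 6 genes of sinuses and lymphatics, with medians of 0.30 on day 2 and 0.21 on day 139 over day 0. Stab2, a scavenger receptor of sinus endothelium, had signals of 6533, 7530 and 6109, and Stab1, which macrophages share, had 2034, 2668 and 1131 and was called lower on day 139 over day 2 (log2 ratio -1.24). Lyve1 had signals of 18.91, 53.96 and 33.09, without a call. Pdpn, which lymphatic endothelium and stromal cells of the white pulp carry, had 181, 443 and 507 and was called higher over day 0 on both days (log2 ratios 1.29 and 1.48). Madcam1, an adhesion molecule of the marginal sinus, had 1146, 1080 and 1637, so that, like Esm1, it stood highest on day 139.

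Genes of endothelial activation and anticoagulation held the lowest values. Of 8 such genes 7 were detected, the exception being Sele, and their median log2 ratios were -0.63 on day 2 and -1.10 on day 139 over day 0, with all 7 lower on day 139. With spike-in scaling that median was -0.76 and 5 of 7 were lower. Procr, the endothelial protein C receptor, had signals of 2628, 669 and 581 and was called lower on both days (log2 ratios -1.97 and -2.18). Selp, or P-selectin, which endothelium and platelets store, had signals of 172, 162 and 48.2 and was called lower on day 139 against both earlier arrays. Its log2 ratio over day 0 was -1.84 there, beside the megakaryocyte median of -0.65. The part of megakaryocytes in the Selp value was not tested.

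Genes of the cells that wrap vessels were called in both directions on day 2. Of 10 pericyte and smooth muscle genes, 3 were called higher and 1 lower on day 2 over day 0. Of all detected probes, 1.91% were called higher and 2.55% lower in that comparison. The summed signal of the 10 genes was 21940, 61080 and 14790. Acta2, the actin of smooth muscle and of activated fibroblasts, had signals of 3364, 24800 and 3500, a log2 ratio of 2.88 on day 2, and returned near its day 0 level on day 139. Myh11, the smooth muscle myosin, had 91.1, 289 and 88.0, and Tagln had 13380, 31420 and 8423. All 3 were called higher on day 2. Of the 10 genes, 6 were higher on day 2 than on day 0 and 4 were lower, and Kcnj8, a potassium channel of pericytes, had 324, 161 and 174 and was called lower. Splenic capsule and trabeculae hold smooth muscle as well, and the part of these cells in the Angpt1 value of day 2 was not tested.

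**Figure D4:**
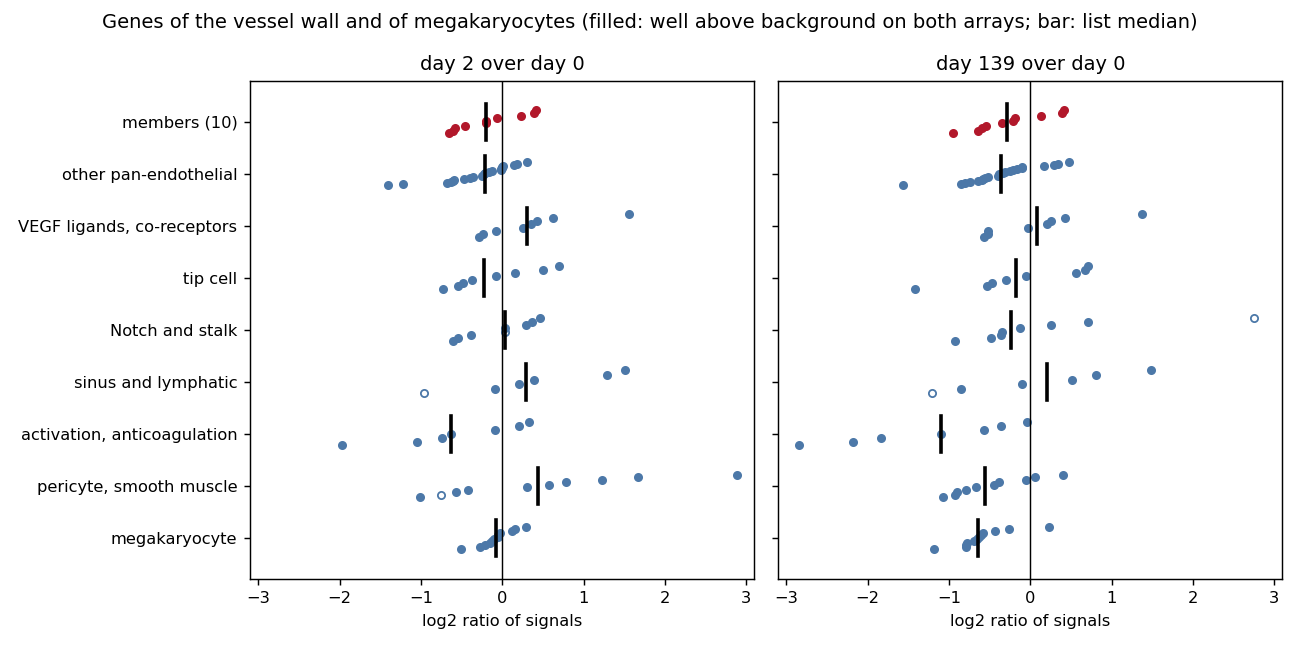
Log2 ratios of day 2 over day 0 (left) and day 139 over day 0 (right) for each detected gene of the lists named on the vertical axis, with the list median as a black bar. Filled points were well above background on both arrays and open points on 1 of them or neither. The 10 endothelial and angiogenic genes (red) lie between -0.95 and 0.41, while Procr of the activation list reaches -2.18 on day 139 and Acta2 of the smooth muscle list 2.88 on day 2.

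Markers of other cell types also differed between the spleens. Islet endocrine genes had a median log2 ratio of 2.04 on day 2 over day 0, with 13 of 13 detected genes higher, and -0.97 on day 139. The 6 B cell genes had a median of 1.103 and the 6 T cell genes of 0.95 on day 139 over day 0, all 12 higher, while 6 erythroid genes had a median of -0.52 and 6 macrophage genes of -0.06 (-0.10 and 0.34 with spike-in scaling). All 4 detected adipocyte genes and 7 of 8 exocrine pancreas genes were higher on day 139 than on day 0. Over those well above background on all 3 arrays, the medians were 1.99 for 3 adipocyte genes and 0.93 for 4 exocrine genes. Tlx1 and Nkx2-5, transcription factors of splenic stroma, were well above background on all 3 arrays, with signals of 520, 465 and 390 for Tlx1. Lymphocyte genes were higher on the same array on which the pan-endothelial median was lowest, and the part of these other cell types in that median was not tested. On day 2 over day 0 the B cell median was 0.10 and the T cell median 0.35.

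The genes most like Angpt2, Esm1 and Pecam1 were sought among probes well above background on all arrays and within 4-fold of their mean signal, by the distance between their 2 log2 ratios over day 0. Near Angpt2 were Etfdh (distance 0.0015) and Prr3 (0.015) of 8671 genes compared. Nearest to Esm1 were Nfkbid (0.0091), Dennd2d (0.010) and Gnptab (0.019) of 7440. Nearest to Pecam1 were Mex3c (0.021), Rnpc3 (0.022) and Tiparp (0.033) of 8627. With 3 arrays a pattern has only 2 independent values, and likeness over them is a description of these arrays.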

How the data were processed

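Spleen RNA of 3 samples was hybridized to 1 Agilent one-color array each, all on 1 slide with 1 scan time. The authors deposited the intensity of every spot, background-subtracted on a linear scale and not yet normalized between arrays. Per the file headers, Feature Extraction version 10.7.1.1 was used, while the submitters' processing notes name 9.5.1.1. For RNA purification and labeling, the kits differ between the labels and the methods. The authors also deposited 1 table of normalized intensity values per probe, in which each array has a median of 22.01. It is linear and quantile normalized, and differed from the values used here by a median of 0.000151 on the log2 scale.

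Control spots and outlier spots were left out, spots of a probe were averaged, and 55679 probes were quantile normalized over the 3 arrays, floored at 1 and taken to log2. Quantile normalization hides differences in total mRNA. Detected probes were well above background in at least 50% of their spots on at least 1 array (54.4%, 53.8% and 50.4% of probes on days 0, 2 and 139). With 3 arrays their number limits the precision. A gene is led by its brightest detected probe. A bound was taken against the lowest signal well above background.

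The text names every probe of the 10 genes, and of other lists the 2 largest and 2 smallest log2 ratios per comparison with Vegfa, Flt4 and Nrp1, and 3 nearest genes of Angpt2, Esm1 and Pecam1. Sele and Stab2 were named after their values were seen. Some genes that this rule takes in are not reported here. The 10 genes and the 16 other lists were chosen with earlier results of these data known. Alternatives used limma 3.58.1 in R 4.3.3, and the rest numpy 2.4.6, pandas 2.3.3 and scipy 1.17.1 in Python 3.11.15. All 10 symbols were found in a RefSeq table of GRCm38.p6, used for names only.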

Additional observations from a re-analysis of the deposited data

How the results depend on the processing

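The 12 alternatives changed the background correction (normexp, offset 50), the scaling (75th percentile, or the spike-ins), the source (the table of the authors), the floor (lowest signal above background), the detection filter (all 3 arrays), the outlier spots (kept), the Z-score (250 probes, or a scaled median absolute deviation), the ratio limits (2 and 0.5, or no Z-score) and the choice of probe (median per gene). Of 96 counts and medians recomputed, 4 moved. This share does not measure stability, because several alternatives could move little or nothing. The leading probes were well above background on every array, so the floor and the detection filter left the medians unchanged. Stricter ratio limits cannot raise a count of 0, and the table of the authors is quantile normalized as well. Spike-in scaling moved the pan-endothelial median to -0.14 for day 139 over day 0 and to 0.0884 for day 139 over day 2 (-0.26 with quantile normalization). Ratio alone gave 2 genes lower on day 2 over day 0 and 2 on day 139 over day 0, in place of 0. Of the 30 ratios of single genes, 10 changed sign under at least 1 alternative, namely Pecam1, Tie1 and Angpt2 on day 139 over day 0, Vwf on day 2 over day 0 when its probes were combined (0.29), and Cdh5, Kdr, Flt1, Tek, Angpt1 and Angpt2 on day 139 over day 2. No paired analysis was possible because each condition had 1 array, and no replicate could be left out. Background limits Tek and the dim Flt1 probe most.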
